A study of Mus musculus with 7 samples.

Results

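The genes described here encode the proton pump of the lysosome (the vacuolar ATPase), the lysosomal proteases of the cathepsin family and the lysosome-associated membrane proteins (LAMPs). They were taken as every gene with a single-symbol probe set named Atp6v or Atp6ap, Cts followed by 1 letter or digit, or Lamp followed by a digit. Ctss was left out, and each gene was read from its brightest probe set on average over the 7 arrays, with no filter on level. This gave 50 members of the 22180 genes measured.

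The vacuolar ATPase couples ATP hydrolysis in its cytosolic V1 sector to proton transport through its membrane-embedded V0 sector, and so acidifies endosomes, lysosomes and phagosomes. Cathepsins are made as inactive precursors and become active in that acid lumen, where they degrade proteins and trim antigens for presentation on MHC class II. LAMP glycoproteins line the lysosomal membrane. In phagocytes and antigen-presenting cells these proteins serve the breakdown of ingested material, and endosomal acidification and cathepsin cleavage are needed for signalling by the nucleic acid-sensing Toll-like receptors.

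RNA came from spleen monocytes of 2 mice, selected and wild type for EPCR, a receptor of protein C on endothelial and some blood cells. HL7G, a human monoclonal antiphospholipid antibody, was given at 400 ng/ml for 3 h to cells of both mice (n = 2). The Toll-like receptor agonists were given for 3 h to cells of mouse 1 alone (n = 1 each): R848 (2 µg/ml), which activates TLR7, CpG B (2.5 µM), a DNA oligonucleotide read by TLR9, and the synthetic double-stranded RNA poly I:C (1 µg/ml), a ligand of TLR3. Unstimulated cells of both mice were the reference (n = 2), and the sources used here do not give their time in culture. An IgG control, which the protocol names, is not among the 7 arrays, so HL7G had no antibody control here.

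Levels are log2 values after RMA, as the authors deposited them. A level is comparable between arrays for 1 probe set, not between probe sets. Arrays measure relative amounts of RNA in a sample, so more RNA per cell and more cells of a type cannot be told apart. The unstimulated arrays stood apart from the other 5 in transcripts that most cells carry. Actb read 9.34 and 8.31 on the HL7G arrays, 7.77 to 8.49 on the agonist arrays, and 5.02 and 6.81 on the unstimulated arrays. B2m read 10.26 and 9.91 with HL7G and 5.74 and 7.90 unstimulated. Eef1a1 read 10.80 and 10.38 with HL7G and 6.61 and 9.46 unstimulated. Ptprc read 8.09 and 8.30 with HL7G and 4.06 and 5.44 unstimulated. For each of these and Actb the unstimulated array of mouse 1 was the lowest of the 7. Of the abundant transcripts read, Gapdh alone lay the other way, at 7.75 and 8.07 with HL7G and 9.13 and 8.75 unstimulated. Markers of other spleen cells moved with the HL7G comparison. Of 9 tested B cell markers, 8 were called higher, and the summed linear level of the list's 10 measured genes was 885 and 857 with HL7G, 489 to 657 with the agonists, and 304 and 372 unstimulated. Of 8 tested T cell markers, 5 were called higher, with sums over 9 measured genes of 764 and 691 with HL7G, 415 to 464 with the agonists, and 317 and 355 unstimulated. The monocyte and macrophage list had 2 of 5 tested genes called higher (Lyz2 and Irf8), with sums over 11 measured genes of 705 and 481 with HL7G, 490 to 540 with the agonists, and 324 and 381 unstimulated. Without Irf8 these sums were 345 and 376 with HL7G, 296 to 319 with the agonists, and 281 and 338 unstimulated. Cx3cr1, of the same list, lay the other way, at 5.64 and 5.26 with HL7G and 6.05 and 6.503 unstimulated. Ly6c2 and Ccr2, which define inflammatory monocytes, lay under a log2 level of 5 on all 7 arrays. In each of the 9 other marker lists at most 1 gene was called. The part of these shifts in the results below was not tested.

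In all, 9 of the 26 tested members were called higher with HL7G and none was called lower. They were the V1 subunits Atp6v1e1 and Atp6v1d, the V0 subunits Atp6v0b and Atp6v0a2, the cysteine proteases Ctsb, Ctsc and Ctsz, the aspartic protease Ctsd, and Lamp1. Their differences from unstimulated cells ran between 0.89 and 2.05 on the log2 scale, which is 1.85-fold to 4.13-fold. The test was limma fitted over 11119 genes that reached a log2 level of 5 on at least 1 array, with Benjamini-Hochberg adjustment and a threshold of 0.05. Of the 50 members, 26 passed that filter (52%), beside 50.1% of all genes. The 9 called higher were 34.6% of the 26 tested, against 16.3% of all genes tested. No member was called lower, against 1.89% of all genes tested. The filter was passed by 4 of the 26 only through the HL7G arrays (Atp6v1c1, Atp6v1h, Ctsc and Ctso), so the count over tested members is a description.

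With no filter on level, both HL7G arrays lay above both unstimulated arrays in 21 of the 50 members (42%), beside 25.6% of all 22180 genes. Both lay below in 11 of 50 (22%), beside 38% of all genes. The highest of the 7 arrays was an HL7G array for 17 members (34%, against 29.8% of all genes), and the lowest was an unstimulated array for 23 (46%, against 28.9%). The median HL7G difference was 0.07 over the 50 members and -0.12 over all genes. Over the tested genes it was 0.64 for the 26 members and 0.06 for all. As 4 of the 26 passed the level filter only through the HL7G arrays, nothing is read from that median.

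The size of this set depended on which arrays and which scaling were used. Without the unstimulated array of mouse 1 none of the 9 stayed called, with differences of 0.83 to 1.96 and limma adjusted p between 0.0880 and 0.274; in that fit 2 of all 11119 genes were called. Without the unstimulated array of mouse 2, 3 did (Atp6v1d, Atp6v1e1 and Lamp1). Leaving out the HL7G array of mouse 1 kept 6, and leaving out that of mouse 2 kept 8. After median centring 7 of the 9 stayed called and Lamp5 was called lower, after quantile normalization 6 did with Lamp5 again lower, and after cyclic loess 6 did and Atp6v1h was called higher. All 9 differences stayed above 0 after centring, and 8 did after quantile normalization and loess, with Ctsz the exception. These scalings set the median of all tested genes at -0.07, -0.12 and -0.08, against 0.06 as deposited. The share of higher calls among all genes moved with them, at 1814 of 2024 as deposited, 1484 of 1893 after centring, 1394 of 2421 after quantile normalization and 1372 of 1997 after loess.

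**Figure D1:**
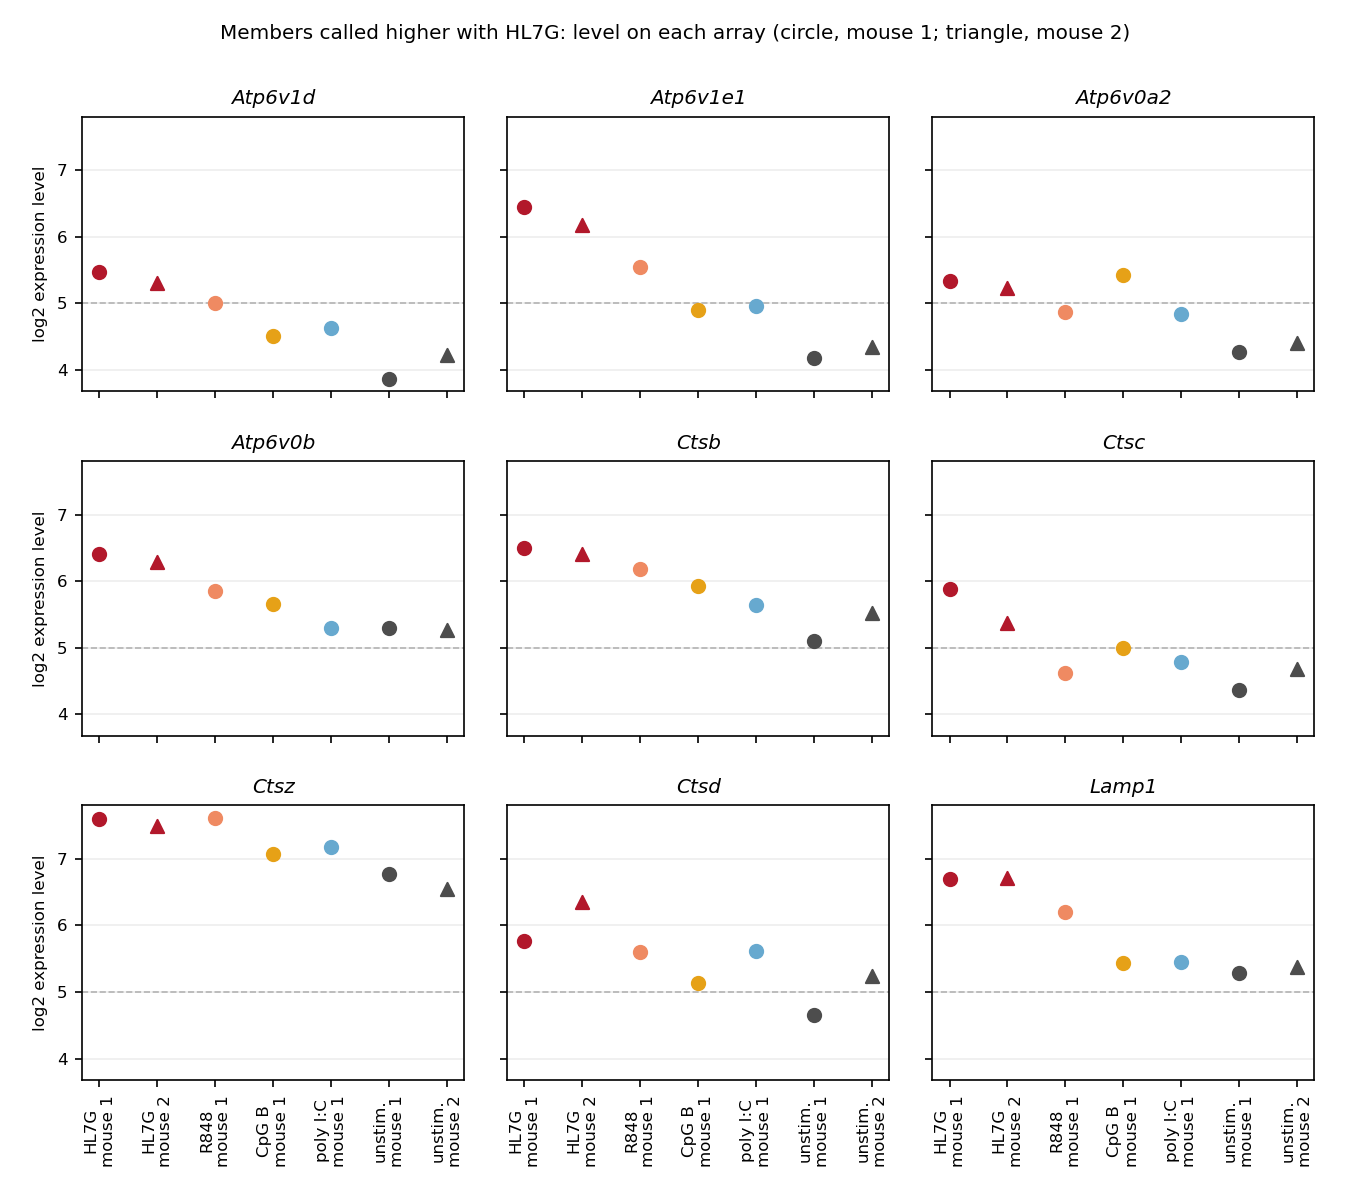
Log2 RMA level (vertical axis) of the 9 members called higher with HL7G, 1 panel each, on the 7 arrays, with a point for each array coloured by group, circles for mouse 1, triangles for mouse 2 and a dashed line at a level of 5. The HL7G points lie above both unstimulated points in every panel, and all 3 agonist points lie between the groups for Atp6v1e1, Atp6v1d, Atp6v0b, Ctsb and Lamp1. The Ctsz difference of 0.89 turned to -0.03 after quantile normalization and -0.32 after cyclic loess.

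Promoters of 3 of these genes are printed because they hold the palindrome CACGTG, the core of the E-box type element bound by TFEB and related factors, which drive lysosomal genes. The sequences are RefSeq promoters on GRCm38.p6, from 250 bases before to 50 bases after the annotated start, read along the gene, with each CACGTG in capitals. Lamp1 lies on the plus strand at chr8:13158911-13159210 and holds 4 sites, which begin 61, 45, 28 and 15 bases before the start. Atp6v0b lies on the minus strand at chr4:117887280-117887579 and holds 2 sites, 36 and 18 bases before the start. Ctsd lies on the minus strand at chr7:142387778-142388077 and holds 2 sites, 245 and 98 bases before the start. Atp6v1e1, the member with the widest HL7G difference, lies on the minus strand at chr6:120822649-120822948 and is printed beside them because its window holds no such site.
Lamp1: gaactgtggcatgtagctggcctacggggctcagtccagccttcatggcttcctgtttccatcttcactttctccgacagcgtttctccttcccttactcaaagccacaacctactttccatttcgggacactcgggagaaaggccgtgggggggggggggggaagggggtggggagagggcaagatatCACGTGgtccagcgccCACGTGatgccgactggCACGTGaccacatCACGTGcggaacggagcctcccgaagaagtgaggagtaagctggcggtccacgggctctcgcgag
Atp6v0b: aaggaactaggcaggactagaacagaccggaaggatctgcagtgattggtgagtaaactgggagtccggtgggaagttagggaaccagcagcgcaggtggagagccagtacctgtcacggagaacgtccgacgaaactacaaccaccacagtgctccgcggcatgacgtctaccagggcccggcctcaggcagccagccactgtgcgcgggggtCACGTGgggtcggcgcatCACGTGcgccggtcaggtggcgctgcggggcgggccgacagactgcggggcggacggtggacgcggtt
Ctsd: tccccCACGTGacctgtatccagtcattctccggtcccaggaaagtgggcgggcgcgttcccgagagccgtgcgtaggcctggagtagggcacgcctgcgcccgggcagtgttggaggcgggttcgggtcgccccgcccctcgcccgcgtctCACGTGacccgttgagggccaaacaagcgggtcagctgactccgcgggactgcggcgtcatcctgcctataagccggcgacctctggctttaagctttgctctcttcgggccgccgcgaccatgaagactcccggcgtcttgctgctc
Atp6v1e1: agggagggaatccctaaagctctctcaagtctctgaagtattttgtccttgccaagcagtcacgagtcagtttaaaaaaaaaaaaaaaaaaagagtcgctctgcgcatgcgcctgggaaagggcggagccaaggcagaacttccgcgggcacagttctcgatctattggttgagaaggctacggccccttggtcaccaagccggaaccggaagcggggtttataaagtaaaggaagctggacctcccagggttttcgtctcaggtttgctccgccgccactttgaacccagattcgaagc

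Of the 50 members, 39 had a promoter in the RefSeq table. CACGTG, which reads the same on both strands, was found in 9 of the 39 (23.1%), beside 8.09% of the 27025 genes with a promoter. Beside the 3 printed genes these were Atp6v0d1, Atp6v0e, Atp6v1a, Ctsa, Ctsf and Ctsl. Of these Atp6v0d1, Atp6v1a and Ctsf were not tested, and Atp6v0e, Ctsa and Ctsl were tested and not called with HL7G. The longer form GTCACGTG, searched on both strands and always overlapping a CACGTG, was in 5 of 39 (12.8%), beside 2.55% of genes. TCACGTGA, also a palindrome and also holding CACGTG, was in 5 of 39 (12.8%), beside 1.12% of genes. Among the 9 members called with HL7G, 7 had a promoter and 3 of those held CACGTG. A match describes the letters of the window and not binding.

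The V1 group held the 14 members whose symbol starts with Atp6v1. The symbol alone placed Atp6v1fnb among them, and it was not tested. Of the 14, 11 were tested and 2 were called (18.2% of those tested, near the 16.3% of all genes). Atp6v1e1 encodes subunit E, part of the peripheral stalk that holds the ATPase head in place. Its level was 6.45 and 6.17 on the HL7G arrays, 5.55 with R848, 4.89 with CpG B, 4.96 with poly I:C, and 4.18 and 4.35 on the unstimulated arrays. Both HL7G arrays lay above every other array and both unstimulated arrays below every other. The HL7G difference was 2.05 ± 0.22 (SE, n = 2 against 2), a 4.13-fold higher level with a limma adjusted p of 0.0120.

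Atp6v1d encodes subunit D of the central rotor shaft, which turns as ATP is split. It read 5.46 and 5.31 with HL7G, 5.01 with R848, 4.501 with CpG B, 4.63 with poly I:C, and 3.86 and 4.22 unstimulated. Here too the HL7G arrays were the highest of the 7 and the unstimulated arrays the lowest. The difference was 1.34 ± 0.23 (SE), 2.54-fold, with a limma adjusted p of 0.0149.

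Of the V1 members that missed the threshold, Atp6v1h, the regulatory subunit H, came nearest. It read 5.58 and 5.08 with HL7G, 4.94 with R848, 4.65 with CpG B, 4.54 with poly I:C, and 4.39 and 4.55 unstimulated. The HL7G arrays were again the highest of the 7, with a difference of 0.86 ± 0.25 (SE) and a limma adjusted p of 0.0560, and of 0.0333 with a variance trend. Atp6v1c1, subunit C of the stalk, read 5.33 in mouse 1 and 4.34 in mouse 2 with HL7G, against 3.91 in mouse 1 and 4.21 in mouse 2 unstimulated. Its difference lay mostly in mouse 1 and had a limma adjusted p of 0.154. Atp6v1a, the catalytic subunit, had no level of 5 or more and went untested, at 4.78 and 4.71 with HL7G and 4.63 and 4.998 unstimulated; its groups overlapped.

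Different probe sets disagreed for 2 V1 genes. For Atp6v1b2, which encodes the B subunit of the ATPase head, the brightest probe set gave a difference of -0.04 (95% interval -0.62 to 0.53). The other probe set read 5.76 and 5.15 with HL7G, 5.27 with R848, 4.84 with CpG B, 5.06 with poly I:C, and 4.20 and 4.37 unstimulated, a difference of 1.17. For Atp6v1g1, a subunit G of the peripheral stalk, the brightest gave 0.69 (limma adjusted p = 0.0766), and the other probe sets gave -1.198 and -0.83. The remaining tested V1 members, Atp6v1c2, Atp6v1e2, Atp6v1f, Atp6v1g2 and Atp6v1g3, had differences between -0.47 and 0.24.

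The V0 sector had 8 members, of which 4 were tested and 2 were called (50%, against 16.3% of all genes tested). These are too few members to compare. Atp6v0b encodes a proteolipid of the rotating ring that carries protons across the membrane. It read 6.41 and 6.28 with HL7G, 5.86 with R848, 5.66 with CpG B, 5.30 with poly I:C, and 5.29 and 5.26 unstimulated. The poly I:C array lay level with the unstimulated arrays, and the HL7G arrays lay above all others. The difference was 1.07 ± 0.21 (SE), 2.10-fold, with a limma adjusted p of 0.0195.

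Atp6v0a2 encodes an isoform of subunit a, which forms the proton path next to the ring and is known from the Golgi and endosomes. It read 5.34 and 5.23 with HL7G, 4.87 with R848, 5.42 with CpG B, 4.84 with poly I:C, and 4.26 and 4.40 unstimulated. The CpG B array was the highest of the 7, so the HL7G arrays did not stand above all agonists. The HL7G difference was 0.96 ± 0.21 (SE), 1.94-fold, with a limma adjusted p of 0.0257.

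Atp6v0a1, another isoform of subunit a, was also highest on the CpG B array, at 5.11, against 4.40 and 4.72 with HL7G and 4.04 and 4.40 unstimulated. The osteoclast isoform Atp6v0d2 stayed at 3.25 to 3.56 on all arrays. Its ubiquitous counterpart Atp6v0d1 read 4.76 and 4.77 with HL7G, against 4.42 and 4.24 unstimulated, and was not tested. Tcirg1, the isoform of subunit a prominent in osteoclast lysosomes and outside the symbol rule, read 5.44 and 5.36 with HL7G, against 4.84 and 5.21 unstimulated (difference 0.38, limma adjusted p = 0.273). The main ring subunit gene Atp6v0c was not analysed here. The 3 accessory members did not reach 5. Among them Atp6ap2, the prorenin receptor, came closest, at 4.80 and 4.82 with HL7G, 4.998 with R848, and 4.67 and 4.61 unstimulated.

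**Figure D2:**
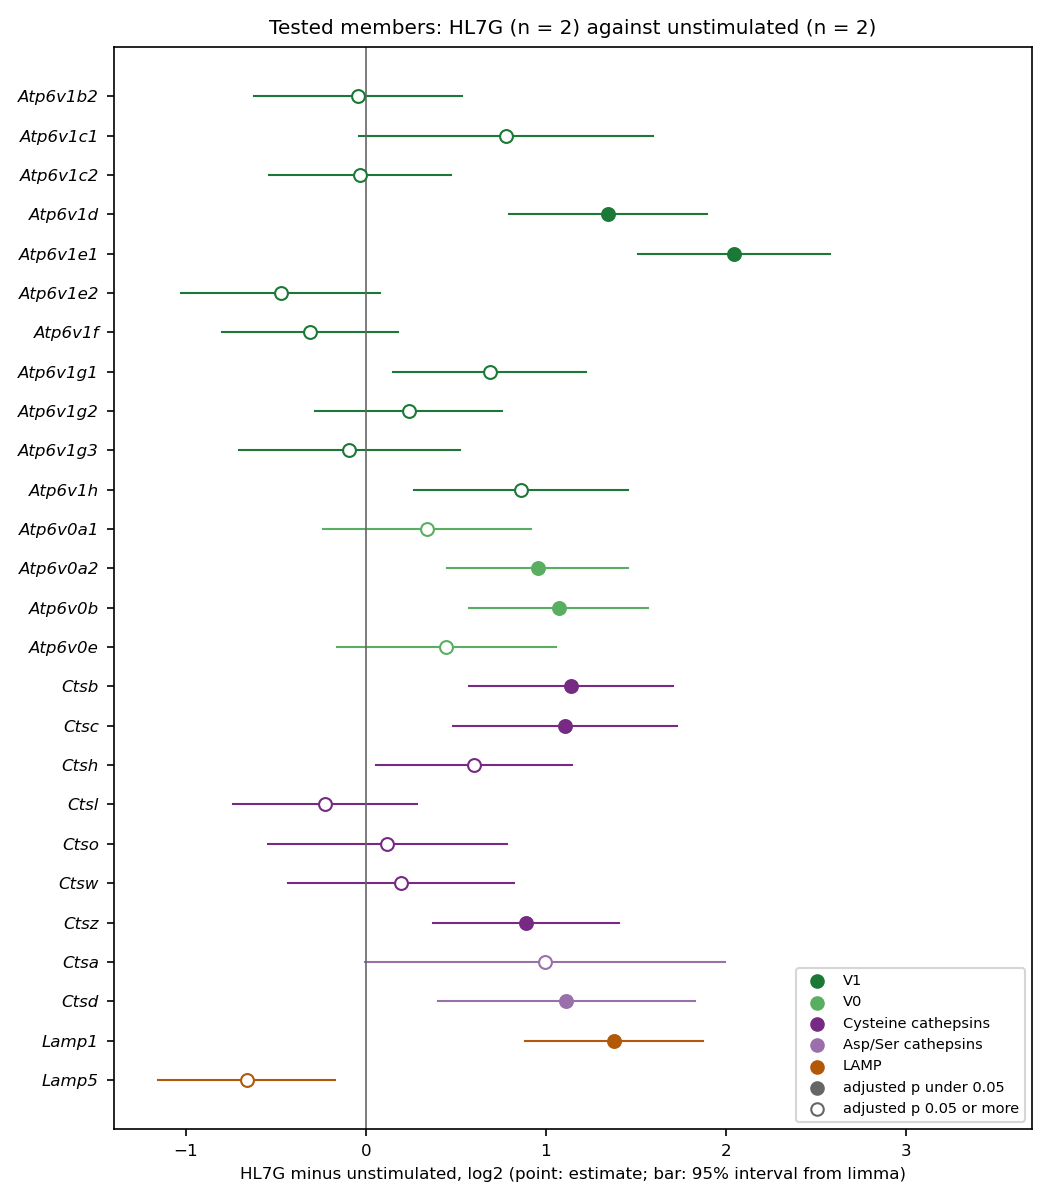
HL7G minus unstimulated on the log2 scale (horizontal axis) for the 26 tested members, ordered by role and coloured by it, with bars for limma's 95% interval and filled points for adjusted p under 0.05. The 9 filled points lie between 0.89 (Ctsz, below 0 after quantile normalization and loess) and 2.05 (Atp6v1e1), and the 17 open points between -0.66 (Lamp5) and 0.99 (Ctsa).

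Cysteine cathepsins outside the placental cluster numbered 9, of which 7 were tested and 3 were called (42.9%, against 16.3% of all genes tested). Of these members Ctsc and Ctso passed the level filter only through the HL7G arrays, so nothing is read from that share. Ctsb encodes cathepsin B, an abundant endopeptidase and dipeptidyl carboxypeptidase of lysosomes. It read 6.505 and 6.40 with HL7G, 6.18 with R848, 5.93 with CpG B, 5.64 with poly I:C, and 5.10 and 5.53 unstimulated. All 5 stimulated arrays lay above both unstimulated arrays, with HL7G the highest. The difference was 1.14 ± 0.24 (SE), 2.204-fold, with a limma adjusted p of 0.0224, and 0.0625 after quantile normalization.

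Ctsc encodes cathepsin C, the dipeptidyl peptidase that activates the serine proteases of leukocyte granules. It read 5.89 and 5.37 with HL7G, 4.62 with R848, 4.996 with CpG B, 4.79 with poly I:C, and 4.36 and 4.68 unstimulated. The HL7G arrays lay above the rest, while the R848 array lay within the unstimulated range. The difference was 1.11 ± 0.26 (SE), 2.15-fold, with a limma adjusted p of 0.0309, and it was 1.52 in mouse 1 and 0.69 in mouse 2.

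Ctsz encodes cathepsin Z (also called X), a carboxypeptidase of monocytes and macrophages. It read 7.60 and 7.499 with HL7G, 7.62 with R848, 7.08 with CpG B, 7.17 with poly I:C, and 6.78 and 6.54 unstimulated. The R848 array lay level with the HL7G arrays, and all stimulated arrays lay above the unstimulated ones. The difference was 0.89 ± 0.22 (SE), 1.85-fold, with a limma adjusted p of 0.0342. The adjusted p was 0.0587 with a block for the mouse and 0.128 with a variance trend, and the difference turned to -0.03 after quantile normalization and to -0.32 after loess.

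Ctsl, the endopeptidase cathepsin L, did not follow these 3. It read 5.29 and 5.12 with HL7G, 5.20 with R848, 4.89 with CpG B, 5.32 with poly I:C, and 5.51 and 5.35 unstimulated. Both HL7G arrays lay just below both unstimulated arrays, and the 95% interval of the difference was -0.74 to 0.29 (limma adjusted p = 0.468). Ctsh, an aminopeptidase, read 5.48 and 5.33 with HL7G and 4.63 and 4.98 unstimulated, a difference of 0.60 (limma adjusted p = 0.112). Ctso changed sign between the mice, at 0.62 in mouse 1 and -0.38 in mouse 2. Ctsk, the collagen-degrading protease of osteoclasts, was not tested, at 4.39 and 4.60 with HL7G and 4.91 and 4.92 unstimulated. The 8 cathepsins of the rodent placental cluster stayed at 2.16 to 4.30 on every array.

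Of the 4 aspartic and serine cathepsins, 2 were tested and Ctsd was called (50%, against 16.3% of all genes tested, too few to compare). It encodes cathepsin D, the main aspartic protease of lysosomes. Ctsd read 5.77 and 6.35 with HL7G, 5.61 with R848, 5.14 with CpG B, 5.61 with poly I:C, and 4.66 and 5.23 unstimulated. The mice differed in level by about as much in both groups, and the HL7G difference was 1.11 in mouse 1 and 1.12 in mouse 2. It was 1.11 ± 0.30 (SE) in the fit, 2.17-fold, with a limma adjusted p of 0.0458. The adjusted p was 0.0654 after median centring, 0.0723 after quantile normalization, 0.0690 after loess and 0.0619 with a mouse block whose HL7G numbers were exchanged.

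Ctsa, the serine carboxypeptidase that shields lysosomal neuraminidase and beta-galactosidase, had the widest difference that was not called. It read 4.65 in mouse 1 and 5.997 in mouse 2 with HL7G, 5.01 with R848, 4.25 with CpG B, 4.27 with poly I:C, and 4.45 in mouse 1 and 4.21 in mouse 2 unstimulated. The difference was 0.20 in mouse 1 and 1.79 in mouse 2, with a limma adjusted p of 0.141. Ctse and Ctsg, proteases of antigen-presenting cells and of neutrophil granules, stayed at 4.05 to 4.64 on all arrays.

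Of the 4 LAMP genes, 2 were tested and Lamp1 was called (50%, against 16.3% of all genes tested, too few to compare). Lamp1 encodes one of the most abundant glycoproteins of the lysosomal membrane. It read 6.70 and 6.72 with HL7G, 6.21 with R848, 5.44 with CpG B, 5.45 with poly I:C, and 5.28 and 5.38 unstimulated. R848 stood between the groups, and the CpG B and poly I:C arrays lay just above the unstimulated ones. The difference was 1.38 ± 0.21 (SE), 2.60-fold, with a limma adjusted p of 0.0124, and it was 1.42 in mouse 1 and 1.34 in mouse 2.

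Lamp2, its paralogue that also serves chaperone-mediated autophagy, read 4.64 and 4.39 with HL7G, 4.08 with R848, 3.79 with CpG B, 4.14 with poly I:C, and 3.63 and 4.08 unstimulated. The HL7G arrays were the highest, but all levels were under 5 and it was not tested. Lamp3, a marker of mature dendritic cells, stayed at 3.60 to 4.08 and its groups overlapped. Lamp5, an endosomal family member best known from neurons, lay the other way, at 4.57 and 4.65 with HL7G, 4.72 with R848, 5.22 with CpG B, 5.12 with poly I:C, and 5.27 and 5.27 unstimulated. Its difference of -0.66 had a limma adjusted p of 0.0680 as deposited, and of 0.0391 with a variance trend. It was -0.79 after both median centring and quantile normalization, with adjusted p of 0.0455 and 0.0346.

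**Figure D3:**
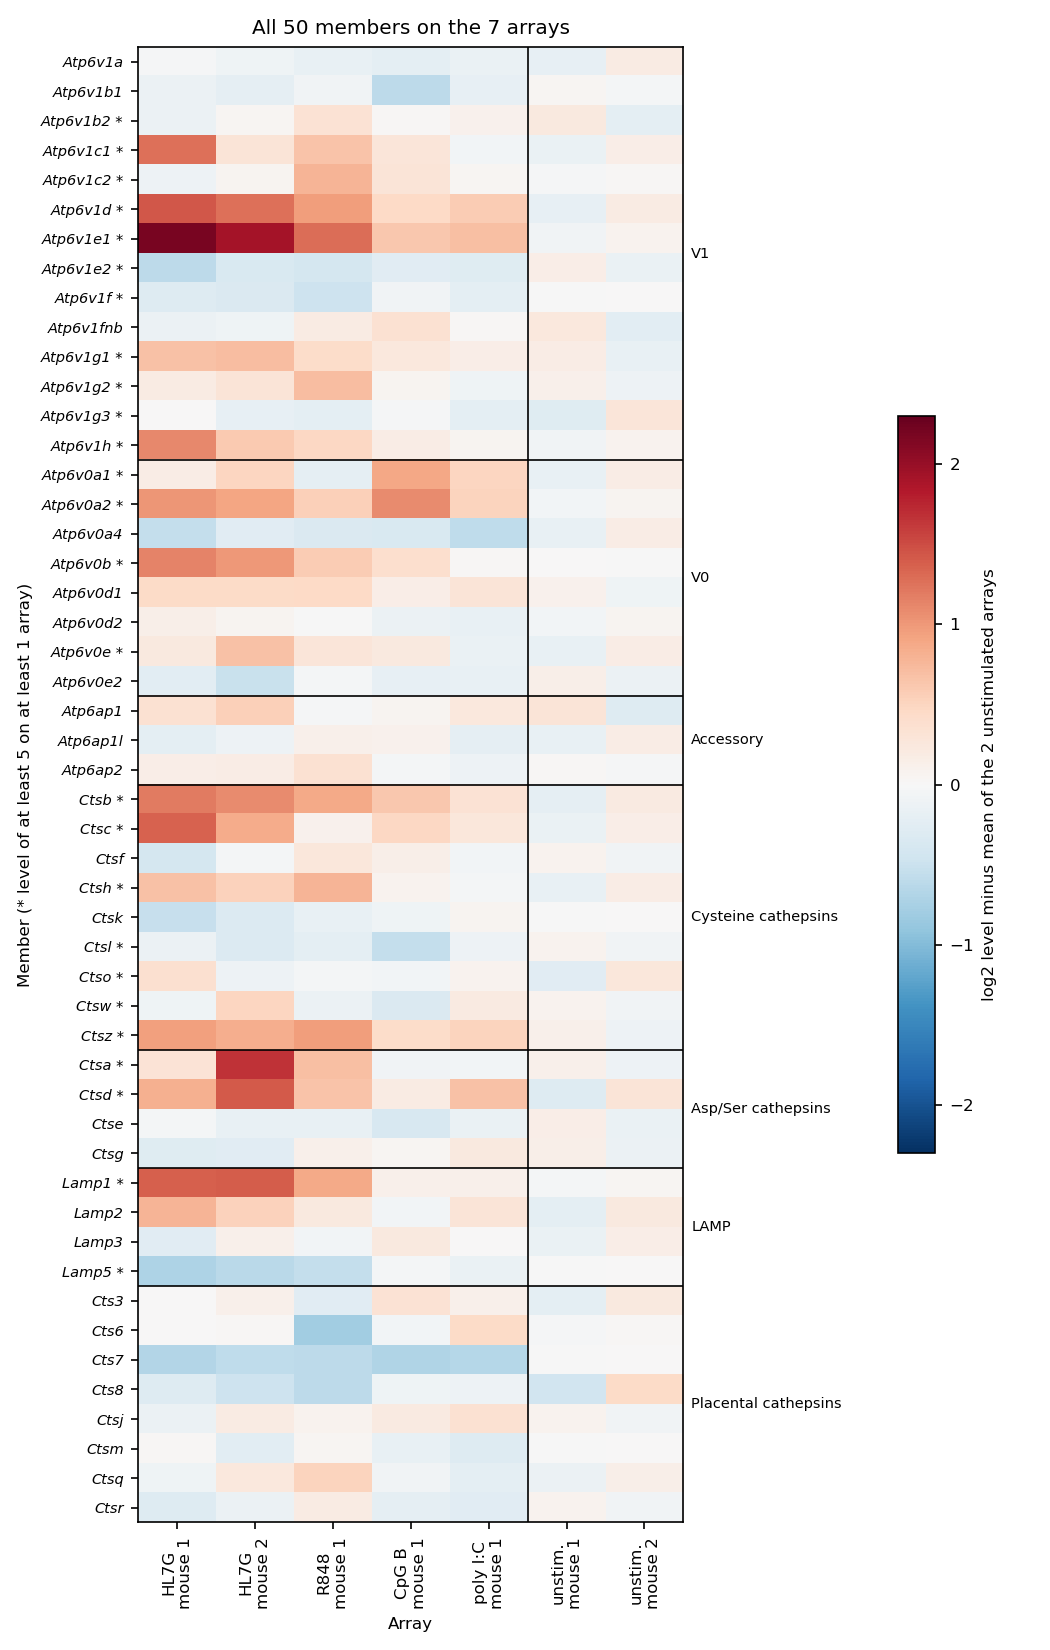
Level of each of the 50 members on each of the 7 arrays, as log2 difference from that member's mean over the 2 unstimulated arrays, with members in rows grouped by role, HL7G columns at the left and unstimulated columns at the right. Asterisks mark the 26 tested members. The HL7G columns of called genes average 0.89 (Ctsz, below 0 after quantile normalization and loess) to 2.05 above the unstimulated mean. The uncalled Ctsa averages 0.99. For Ctsz the R848 column is at 0.95, and for Atp6v0a2 the CpG B column is at 1.09, each above that gene's HL7G average.

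The 2 mice were compared member by member. The HL7G difference had the same sign in both mice for 37 of the 50 members (74%), beside 73.4% of all genes. Of the 13 with opposite signs, 5 were tested: Atp6v1b2, Atp6v1c2, Atp6v1g3, Ctso and Ctsw. All 9 called members were higher in both mice, and in 7 the difference was wider in mouse 1, with Ctsd and Ctsz the exceptions. At least a 2-fold higher level in both mice was reached by 5 members (10%, against 4.37% of all genes): Atp6v1e1, Atp6v1d, Atp6v0b, Ctsd and Lamp1.

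**Figure D4:**
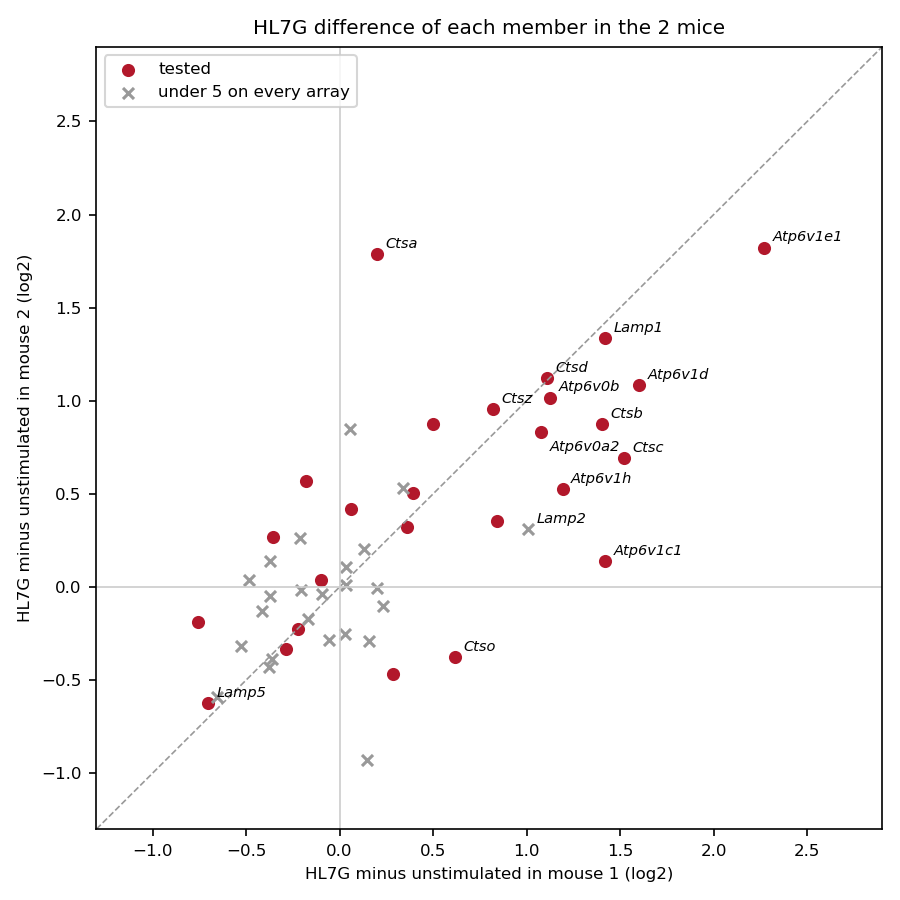
HL7G minus unstimulated in mouse 1 (horizontal axis) and mouse 2 (vertical axis), both log2, with a point for each of the 50 members and the dashed line at equal differences. Called members lie in the upper right, at 2.27 and 1.82 for Atp6v1e1, while Ctsa lies high in mouse 2 alone and Lamp5 in the lower left; the Ctsz difference is as deposited and turns below 0 after quantile normalization and loess.

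The agonist arrays show how these genes stood after Toll-like receptor stimulation in mouse 1. All 3 agonist comparisons and the HL7G comparison share the unstimulated arrays, and each agonist has 1 array, taken to vary as the replicated groups do. For the 9 members called with HL7G the difference from the unstimulated mean was 0.10 to 1.29 with R848, 0.11 to 1.09 with CpG B and 0.02 to 0.70 with poly I:C. That mean holds both mice. For Ctsd with poly I:C the difference was 0.67 from the mean and 0.96 within mouse 1. R848 was the highest of the 3 agonists for 6 of the 9, CpG B for Ctsc and Atp6v0a2, and poly I:C for Ctsd, at 0.67 against 0.66 with R848. No member and no gene was called with R848, CpG B or poly I:C (0% of all genes tested in each), with lowest limma adjusted p over all genes of 0.0854, 0.135 and 0.224.

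At an unadjusted p under 0.05, 8 of 26 members were higher with R848, beside 17.2% of all genes tested. They were Atp6v1c2, Atp6v1d, Atp6v1e1, Atp6v1g2, Ctsb, Ctsh, Ctsz and Lamp1. With CpG B it was 2 of 26, Atp6v0a1 and Atp6v0a2, beside 10.1%, and with poly I:C it was Atp6v1e1 alone, beside 8.1%. Atp6v1c2 passed the level filter only through the R848 array, and Atp6v0a1 only through the CpG B array. Nothing is therefore read from these counts. Leaving out either HL7G array, which enter this fit only through the shared spread, left 2 members called higher with R848, Atp6v1e1 and Ctsz, beside 1541 of all genes in either direction. The R848 array lay above both unstimulated arrays in 23 of the 50 members, beside 36.4% of all genes. The CpG B array did so in 20, beside 31.6%, and the poly I:C array in 18, beside 29.8%.

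HL7G was also set against the mean of the 3 agonists, whose arrays are all of mouse 1, while the HL7G arrays are of both mice. Treatment and mouse are therefore not fully separated in this difference. The unstimulated arrays do not enter this difference, but they do enter the residual spread behind its intervals and p-values. Both HL7G arrays lay above all 3 agonist arrays in 13 of the 50 members (26%, against 13.4% of all genes) and below all 3 in 5 (10%, against 13.6%). The 13 hold 7 of the 9 members called against unstimulated cells; Atp6v0a2 and Ctsz are the others. For Atp6v1e1 the difference was 1.18 (95% interval 0.69 to 1.66), and for Lamp1 it was 1.01 (0.56 to 1.46), each with a limma adjusted p of 0.338. Ctsc stood at 0.83 (0.26 to 1.40) and Atp6v0b at 0.74 (0.29 to 1.20). For Atp6v0a2 it was 0.24, the smallest of the 9. Limma called no gene here after adjustment (0% of genes tested), and at an unadjusted p under 0.05 it gave 7 of 26 members higher, beside 9.52% of all genes tested. Of the 7, Ctsc and Atp6v1h passed the level filter only through the HL7G arrays, so nothing is read from this count.

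Between the agonists, the mean of R848 and CpG B was set against poly I:C. TLR7 and TLR9 signal through the adaptor MyD88, and TLR3 through TRIF. Limma called no member and no gene (0%), and none of the 26 members passed an unadjusted p under 0.05, beside 1.68% of all genes tested. With 1 array for each agonist these members cannot be said to respond alike.

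Other lysosomal genes gave the setting for these members. Of 24 tested hydrolases and their activators, 4 were called higher with HL7G (16.7%, near the 16.3% of all genes tested) and none lower. Their median difference was 0.35, beside 0.06 for all genes tested. Over the list's 34 measured genes, with no filter on level, it was 0.17, beside -0.12 for all genes. A median over tested genes can depend on the level filter, so nothing is read from it here or in the lists below. Psap, the precursor of the saposins, read 6.95 and 7.16 with HL7G, 6.05 to 6.91 with the agonists, and 4.73 and 6.10 unstimulated. Its groups did not overlap, the unstimulated arrays were far apart, and the difference was 1.64 ± 0.43 (SE, limma adjusted p = 0.0407). Lgmn, legumain, the asparaginyl endopeptidase that processes cathepsins, read 6.23 and 6.30 with HL7G, 5.72 to 6.43 with the agonists, and 4.83 and 5.24 unstimulated (difference 1.23 ± 0.24, limma adjusted p = 0.0190). Ifi30, the lysosomal thiol reductase GILT, and Acp5, the tartrate-resistant acid phosphatase, rose by 1.13 and 0.97 on the log2 scale (limma adjusted p = 0.0324 and 0.0270).

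Of 15 tested lysosomal membrane proteins Slc15a3, a transporter of histidine and small peptides, was the only gene called (6.67%, against 16.3% of all genes tested). It read 5.85 and 5.02 with HL7G, 4.86 to 5.66 with the agonists, and 4.12 and 4.14 unstimulated (difference 1.30 ± 0.30, limma adjusted p = 0.0299). The list's median was 0.19. Among 18 tested regulators and sorting factors, M6pr, Lamtor3 and Gnptab were called higher (16.7%, near the 16.3% of all genes tested) and none lower, with a median of 0.24. M6pr, the cation-dependent receptor that carries mannose 6-phosphate-tagged hydrolases to the lysosome, read 6.90 and 6.35 with HL7G, 5.999 to 6.55 with the agonists, and 5.04 and 5.36 unstimulated (difference 1.42 ± 0.27, limma adjusted p = 0.0180). Gnptab, which makes that tag, rose by 1.05 ± 0.26 (SE, limma adjusted p = 0.0356), and Lamtor3, part of the complex that anchors mTORC1 at the lysosome, by 1.13 ± 0.22 (limma adjusted p = 0.0197). After quantile normalization the calls of Psap and Lamtor3 were lost, with differences of 1.11 and 0.59 (limma adjusted p = 0.114 and 0.132), and that of Gnptab was lost with the mouse as a block (0.0517) and with a variance trend (0.0610). Tfeb itself stayed under 5 and was not tested, at 4.34 and 4.43 with HL7G and 4.83 and 4.73 unstimulated.

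The remaining V-ATPase subunit and assembly genes and the cathepsin inhibitors gave no call, against 16.3% of all genes tested called higher. Of 7 tested V-ATPase partners, with a median of 0.48, Dmxl1, a factor of pump assembly, came nearest, at 4.98 and 5.13 with HL7G, against 3.88 and 4.42 unstimulated (difference 0.90, limma adjusted p = 0.0524). Of 5 tested cathepsin inhibitors, with a median of 0.04, the cytosolic stefin gene Stfa1 read 4.74 and 5.06 with HL7G, 3.60 with R848, 5.13 with CpG B, 5.11 with poly I:C, and 5.57 and 5.75 unstimulated. Its difference of -0.76 had a limma adjusted p of 0.0612 as deposited and 0.0240 after quantile normalization. Ctss, which the rule leaves out, read 8.10 and 7.24 with HL7G, 6.55 to 7.18 with the agonists, and 4.89 and 6.17 unstimulated.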

How the data were processed

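RNA from 7 samples of mouse spleen monocytes was hybridised to Affymetrix Mouse Gene 2.0 ST arrays, 1 array each. The authors deposited log2 values per probe set. The tools listed in the submitters' processing notes, without versions, are RMA, Transcriptome Analysis Console and Affymetrix Expression Console. The table held 41345 probe sets; GEO's platform annotation gave 23521 of them 1 symbol, 1814 several and 16010 none. The brightest single-symbol probe set stood for a gene, and genes under a log2 level of 5 on all arrays were not tested. limma 3.58.1 (R 4.3.3) fitted group means over all 7 arrays, with 2 residual and 4.94 prior degrees of freedom and Benjamini-Hochberg adjustment over 11119 genes. Scripts were tested on simulated data. The number of arrays limits precision. Arrays with 1 mouse number come from 1 animal, so the numbers pair HL7G with unstimulated samples; the deviations of mouse 2 from mouse 1 correlated at -0.146 across genes in the 2 groups. The members and all gene lists were chosen with earlier results of these data known. Named genes were all called members and a fixed set of representatives for each role. From each other list they were up to 3 tested genes by absolute size of the HL7G difference. Genes named beyond these were chosen after their values were seen. Promoters are RefSeq's. The alternatives were a replicate block, scalings, level filters, the mean of a gene's probe sets, a variance trend and leaving out each replicated array.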

Additional observations from a re-analysis of the deposited data

How the results depend on the processing

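The count of members called with HL7G, 9 in the report, was 8 with the replicate block (mouse as a term), which changed no other count of members. With the mouse numbers of the HL7G arrays exchanged, an alternative chosen after seeing the data because the pairing correlation was below 0, the block gave 9 members with HL7G (8 of the 9 in the report, without Ctsd and with Atp6v1h) and 1 with R848. The HL7G count was 8 after median centring (7 higher, 1 lower), 7 after quantile normalization or cyclic loess, 9 with no filter or with the mean of a gene's probe sets, 10 with a variance trend (8 of the 9, without Ctsz and with Atp6v1h higher and Lamp5 lower), and 0 where a mean level of 6 left 2 members in the fit. Leaving out 1 replicated array at a time gave 0 to 10. The R848 count, 0 in the report, ranged between 0 and 2 in those fits, and the members called in the other 4 comparisons stayed at 0 in every alternative run. Over all genes, HL7G gave 2024 calls in the report, 2 and 862 without the unstimulated array of mouse 1 or mouse 2, 1348 and 3295 without the HL7G array of mouse 1 or mouse 2, 457 of 1337 genes at a mean level of 6, and otherwise 1846 to 2421. R848, CpG B and poly I:C gave 0 in the report and up to 1541, 530 and 198 without an HL7G array, up to 135, 86 and 89 without the unstimulated array of mouse 2, and 575, 120 and 11 after quantile normalization. R848 also gave 5 with the block, 683 with the exchanged block, 51 after loess and 95 with the trend. Ctsz turned to -0.03 after quantile normalization and -0.32 after loess. Atp6v1g2 turned to -0.19 and -0.23 under the same scalings, and Ctso to -0.0088 after centring and -0.027 after quantile normalization. With the mean of their probe sets Atp6v1b2 stood at 0.56 and Atp6v1g1 at -0.45. With 1 replicated array left out, Atp6v1b2 ran between -0.27 and 0.18, Atp6v1c2 between -0.12 and 0.059, Atp6v1g3 between -0.37 and 0.18, Ctso between -0.13 and 0.37, and Ctsw between -0.10 and 0.49. Causes were not tested, apart from the fewer genes or arrays that some fits hold. Of the 50 members, 24 lie under a level of 5, where signal over background limits what can be read.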
